A study of Mus musculus with 2 samples.

Results

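Zeb1, Zeb2, Snai2, Vim, S100a4 and S100a6 were followed in single islet cells of Tg7 and Wild-type mice. They are mesenchymal transcription factors, a mesenchymal intermediate filament and a pair of small calcium-binding proteins that are widely used as signs of epithelial-to-mesenchymal transition (EMT). The genes were taken by symbol, and all 6 were found among the 31054 features of both count matrices. Tg7 mice carry a transgene that raises miR-7a2 in their β-cells, and Wild-type littermates were the control. Both libraries came from islets of 12-week-old male C57Bl6 mice, and by the study's text both genotypes carried a floxed-Stop-tdTomato reporter that rat Ins2-Cre switches on in β-cells. The comparison asks in which islet cells genes of EMT were expressed. There was 1 library per genotype, and the number of mice behind each was not given in the sources used here. Values from 1 library cannot be told apart from the mouse, preparation or sequencing run, so no p-value is given. All intervals are 95% intervals, and they cover counting error only.

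Zeb1 and Zeb2 are zinc-finger factors that silence epithelial genes such as Cdh1, and Snai2 (Slug) is a Snail-family factor that does the same. Vim encodes vimentin, the intermediate filament of fibroblasts, endothelial cells and leukocytes. S100a4, also called fibroblast-specific protein, and S100a6, calcyclin, are cytoplasmic calcium sensors of stromal and myeloid cells, among others. In islets, such genes are at home in blood vessels, pericytes and macrophages, so these cells served as the positive reference for the insulin cells.

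After filters 988 Tg7 and 743 Wild-type cells remained, with a median of 24148 and 39544 UMIs (unique molecular identifiers, counts of single RNA molecules). Insulin cells were clusters in which Ins1 and Ins2 made up over 20% of UMIs and that no other marker list named. There were 656 in Tg7 and 475 in Wild-type, with a median of 29682.5 and 48995 UMIs. Insulin took 27.9% of their UMIs in Tg7 and 62.8% in Wild-type. For this reason levels are given as CPM, here UMIs per 1000000 UMIs of genes other than 7 hormone genes, summed over all cells of a class. The insulin cells of both libraries together held 12638223 and 8017109 such UMIs. The endothelial-like cluster held 19 Tg7 and 31 Wild-type cells, and the macrophage-like cluster 25 and 8. These reference cells were few, with median depths between 4269 and 7491.5 UMIs.

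The endothelial-like cluster was mixed, and its makeup differed between libraries. By the marker list with most UMIs in each cell, 9 of 19 Tg7 cells and 22 of 31 Wild-type cells were endothelial. Fibroblast and pericyte markers led in 6 and 8 cells, respectively, and these are called stromal cells here. Schwann cell markers led in 4 Tg7 cells, and duct markers in 1 Wild-type cell. In the macrophage-like cluster macrophage markers led in 23 of 25 Tg7 cells and in all 8 Wild-type cells. Values for the reference cells are therefore given for the clusters and, where it matters, for the marker-led cells alone.

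The transgene encodes the precursor of miR-7a-5p. Its mature sequence is shown because its seed was searched for in the 6 genes. RefSeq places it at chr7:78888295-78888317 on the plus strand of GRCm38.p6, and capitals mark the seed, bases 2 to 8.
mmu-miR-7a-5p: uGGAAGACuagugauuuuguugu
The seed's full match, GTCTTCC, was found in the longest annotated 3′ UTR (GENCODE M1) of none of the 6 genes, against 11.5% of the 3′ UTRs of 17744 genes in the matrices. The shorter match to bases 2 to 7, TCTTCC, was present in 40.6% of those genes and in 3 of the 6: Zeb1 and Zeb2 with 2 matches each and S100a4 with 1. Both searches read the transcript strand, and every full match also holds the shorter one. The matches of Zeb2 and S100a4 are shown with their neighbouring bases, capitals marking the match.
Zeb2, position 3098 of the 3′ UTR: ctgcataaTCTTCCaactccaggg
Zeb2, position 3214 of the 3′ UTR: tcgaatacTCTTCCcttgttctag
S100a4, position 46 of the 3′ UTR: gtgggggaTCTTCCctgttggctg
Snai2, Vim and S100a6 held no match of either length in that stretch. A match describes these letters only, and binding was not measured.

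Zeb1, the repressor of epithelial genes, was present in insulin cells of both genotypes at nearly the same level. In Tg7 648 UMIs were counted in 355 of 656 cells, and in Wild-type 416 UMIs in 246 of 475 cells. These gave levels of 51.3 (47.4 to 55.4) and 51.9 (47.0 to 57.1) CPM. The ratio of Tg7 over Wild-type was 0.988 (0.872 to 1.12). Scaled to all UMIs the Zeb1 ratio was 1.73, but that scaling moved the median log2 ratio of all genes from -0.02 to 0.79, so ratios are given on the non-hormone scale. After thinning every cell to 2000 non-hormone UMIs, 10.5% of Tg7 and 10.2% of Wild-type insulin cells held a UMI, against 54.1% and 51.8% unthinned. Zeb1 UMIs were spread over many cells, with at most 7 in a Tg7 cell and 8 in a Wild-type cell.

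Zeb1 was also found in the other endocrine classes. In α-like cells Tg7 had 41.4 CPM (32.8 to 51.6) and Wild-type 75.8 (62.2 to 91.4), and in δ-like cells the levels were 63.5 and 78.0. γ-like cells, with 14 and 8 UMIs, stood at 64.2 and 80.8. The Tg7 over Wild-type ratio in α-like cells was 0.546 (0.403 to 0.736), where 5.92% of 9423 genes differed by 2-fold or more. The classes' ratios were not tested against each other. Endothelial-like cells had 111 and 79.9 CPM, the highest or second highest level in each library, and the intervals of 14 and 26 UMIs overlapped those of the δ-like and γ-like cells. Insulin cells thus held 46.0% (27.2 to 84.6) of the endothelial-like level in Tg7 and 65.0% (43.7 to 101) in Wild-type. In macrophage-like cells only 1 UMI was counted in 25 Tg7 cells and 0 in 8 Wild-type cells. Their share of cells with a UMI at the thinned depth was 4.0% in Tg7, below the 10.5% of insulin cells, though its interval of 0.101% to 20.4% covers that value.

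Snai2, the other transcription factor with clear counts, was sparse but likewise of similar level in both genotypes. Insulin cells held 87 UMIs in 76 Tg7 cells and 51 UMIs in 46 Wild-type cells. The levels were 6.88 (5.51 to 8.49) and 6.36 (4.74 to 8.36) CPM, a ratio of 1.08 (0.757 to 1.56). At the thinned depth 0.634% and 1.71% of insulin cells held a UMI, which rests on 4 and 8 cells and gives no order. Unthinned, the shares were 11.6% and 9.68%.

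In the other endocrine classes the intervals of Snai2 overlapped those of insulin cells. α-like cells held 9.95 and 12.5 CPM in Tg7 and Wild-type, and δ-like cells 4.68 and 4.81. Wild-type endothelial-like cells had the highest level, 33.8 (16.9 to 60.5) from 11 UMIs, which was 5.31-fold (2.50 to 10.3) that of Wild-type insulin cells, and all 11 lay in the endothelial-led cells. In the Tg7 endothelial-like cluster 1 UMI was counted, with an interval of 0.202 to 44.4 CPM that covers the insulin and the Wild-type endothelial-like level. Macrophage-like cells had 0 UMIs in both libraries, which allows up to 24.9 CPM in Tg7 and 50.4 in Wild-type (3 UMIs). The floor lies above the level in insulin cells, so that an absence from macrophages was not detectable at this depth.

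Zeb2, the paralog of Zeb1, had a different distribution, with nearly all of its signal outside the endocrine cells. Insulin cells held 12 UMIs in Tg7, each in a different cell, and 2 UMIs in Wild-type. The levels were 0.950 (0.491 to 1.66) and 0.249 (0.0302 to 0.901) CPM, a ratio of 3.81 with an interval of 0.847 to 35.0 that includes 1. The interval left out 1 with insulin cells taken by their insulin share in any cluster, at 6.07 (1.47 to 53.5), and scaled to all UMIs, at 6.68 (1.49 to 61.4). The first of these settings took 702 Tg7 and 496 Wild-type cells, some of them from other clusters, the reference clusters included. Its Zeb2 UMIs are therefore not those of the insulin clusters alone. Without 1 positive cell of each library the ratio was 6.98 (1.01 to 300). Every positive cell held 1 UMI, so this rise follows from taking 1 UMI from each small count and tells nothing more. The unthinned share of insulin cells with a UMI was 1.83% in Tg7, with an interval of 0.949% to 3.17%, and 0.421% in Wild-type, with one of 0.0510% to 1.51%. No Zeb2 UMI remained in any of the 631 Tg7 or 469 Wild-type insulin cells deep enough to be thinned, which allows up to 0.475% and 0.640% of cells with a UMI at that shallow depth (3 cells). α-like cells, which served as a class that should lack the gene, held 1 and 0 UMIs. This gave 0.524 CPM (0.0133 to 2.92) in Tg7 and allows up to 2.09 CPM (3 UMIs) in Wild-type. Both ranges cover the insulin level, so α-like cells cannot show whether insulin cells held more Zeb2.

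The reference cells held far more Zeb2 from far fewer UMIs in all. Macrophage-like cells had 399 (294 to 528) CPM in Tg7 and 555 (382 to 779) in Wild-type, and 17 of 25 and 8 of 8 cells held a UMI. Endothelial-like cells had 223 and 120 CPM. Within that cluster, endothelial-led cells had 112 in Tg7 and 66.4 in Wild-type, whereas stromal cells had 375 and 751 and Schwann-led cells 449. The level in insulin cells was 0.238% (0.115 to 0.455) of the macrophage-like level in Tg7 and 0.0450% (0.00523 to 0.176) in Wild-type, a difference of 420-fold and 2223-fold. Against endothelial-like cells it was 0.426% and 0.208%.

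Vim gave the same picture with still fewer UMIs in insulin cells. There were 4 in Tg7, in 4 cells, and 1 in Wild-type, or 0.317 (0.0862 to 0.810) and 0.125 (0.00316 to 0.695) CPM. The ratio was 2.54 (0.251 to 125), which fixes no direction. It was 0.680 with no filter on barcodes and 0.746 with called doublets kept, both with intervals that include 1, but 7.48 (1.11 to 320) without integration of the libraries and 10.3 (2.64 to 88.6) with insulin cells taken by their insulin share in any cluster. As for Zeb2, the last value also counts Vim UMIs of cells from other clusters, the reference clusters included. Endothelial-like cells had 1067 and 362.5 CPM and macrophage-like cells 681 and 1496. In the marker-led cells Vim was highest in the 4 Tg7 Schwann-led cells, with 2694, followed by Tg7 stromal cells with 1820. Endothelial-led cells had 349 in Tg7 and 425 in Wild-type, with overlapping intervals of 232 to 505 and 344 to 519. The 4 Schwann-led cells held 72 of the 134 Vim UMIs of the Tg7 cluster. In Wild-type macrophage-like cells 53 of 89 Vim UMIs came from 1 cell.

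Vim in the other endocrine classes lay between these extremes. δ-like cells held 16 UMIs in Tg7, each in a different cell, with a level of 10.7 CPM. In Wild-type they held 9, of which 6 lay in 1 cell, with a level of 8.67 CPM. α-like cells held 2 and 8 UMIs, or 1.05 and 5.56 CPM. The order from insulin to α-like to δ-like to reference cells was the same in both libraries, although the intervals of insulin and α-like cells overlapped in Tg7 and those of α-like and δ-like cells in Wild-type. The place of Wild-type δ-like cells rests largely on 1 cell. γ-like cells, with 1 and 0 UMIs, were not placed.

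**Figure D1:**
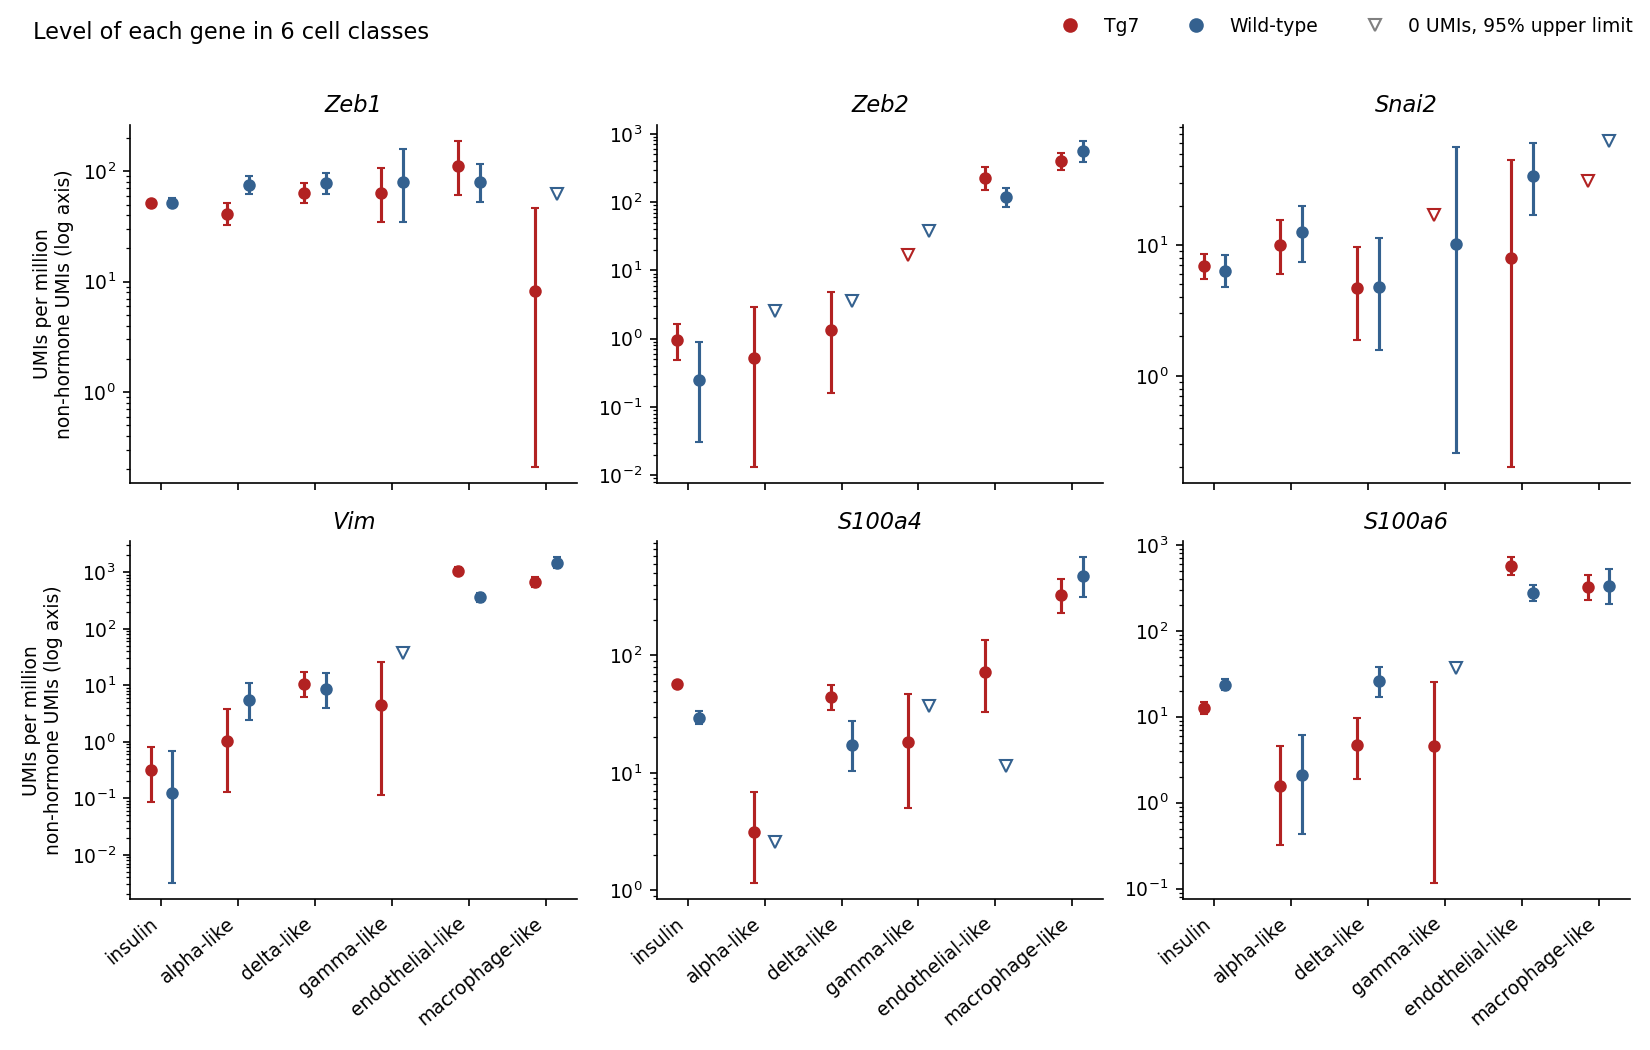
Level of each gene, as CPM of non-hormone UMIs on a log axis, in 6 cell classes of the Tg7 (red) and the Wild-type (blue) library. Points are sums over all cells of a class, bars are exact 95% Poisson intervals, and open triangles are the upper limit where 0 UMIs were counted; Zeb2 and Vim are over 100-fold higher in both reference clusters than in insulin cells, and Zeb1 is not.

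S100a4 differed from the factors and from Vim in that insulin cells expressed it in both genotypes while α-like cells hardly did. Insulin cells held 714 UMIs in 314 of 656 Tg7 cells and 237 UMIs in 160 of 475 Wild-type cells. The levels were 56.5 (52.4 to 60.8) and 29.6 (25.9 to 33.6) CPM. The ratio of Tg7 over Wild-type was 1.91 (1.65 to 2.22), just below the 2-fold limit used for a call, with an interval that covers it. The ratio passed 2-fold under several settings, at 2.04 with no filter on barcodes, 2.08 with a stricter filter, 2.05 with called doublets kept, 2.08 without cells holding a second hormone and 3.35 scaled to all UMIs. With the other filters or doublets kept, clustering anew left 612, 576 and 558 Tg7 insulin cells, against 656. The γ-like cluster then held 90, 84 and 132 Tg7 cells, against 19. These settings thus also changed which cells counted as insulin cells, and the part of this in the ratios was not tested. At the thinned depth the share of insulin cells with a UMI was 11.9% (9.46 to 14.7) for Tg7 but 5.33% (3.48 to 7.77) for Wild-type, against 47.9% and 33.7% unthinned.

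α-like cells had hardly any S100a4. They held 6 UMIs in 4 of 191 Tg7 cells and 0 UMIs in 150 Wild-type cells, which allows up to 2.09 CPM (3 UMIs). At the thinned depth their shares of cells with a UMI were 0.541% and 0%, with median depths of 17350 and 15978.5 UMIs against 29682.5 and 48995 in insulin cells. δ-like cells held 44.1 and 17.3 CPM, a ratio of 2.54 (1.49 to 4.55), but 24 of the 66 Tg7 UMIs lay in 1 cell and δ-like cells of both libraries also held insulin RNA, 19.3% and 32.5% of their UMIs. Macrophage-like cells had the highest level, 324 in Tg7 and 471 in Wild-type, although only 6 of 25 and 2 of 8 cells held a UMI and 1 Wild-type cell gave 25 of 28. No S100a4 UMI was found in the 31 Wild-type endothelial-like cells, nor in any of the stromal cells. The 9 UMIs of the Tg7 endothelial-like cluster were divided between 3 Schwann-led cells, with 6, and 1 endothelial-led cell, with 3.

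S100a6 moved the other way in insulin cells and its UMIs were held by few cells. In Tg7 159 UMIs were counted in 38 of 656 cells, and in Wild-type 190 UMIs in 73 of 475. The levels were 12.6 (10.7 to 14.7) and 23.7 (20.4 to 27.3) CPM, a ratio of 0.531 (0.427 to 0.659), again within 2-fold. It was past 2-fold, at 0.410 (0.330 to 0.508), with insulin cells taken by their insulin share in any cluster, and 0.932 (0.750 to 1.16) scaled to all UMIs. The first of these settings also drops cells of the insulin clusters that fail the insulin threshold. Of the 159 Tg7 UMIs, 100 lay in cells with insulin only and 31 in cells with a second hormone. The rest lay in 1 cell that passed no hormone threshold and was dropped. The share of insulin cells with a UMI was 5.79% and 15.4% unthinned and 1.43% and 3.20% at the thinned depth, where the intervals of 0.654% to 2.69% and 1.80% to 5.22% overlap. In Tg7 the 4 richest cells, with 28, 28, 23 and 15 UMIs, gave 59.1% of the total. In Wild-type 1 cell gave 48 of 190. Without the richest cell of each library the ratio was 0.585 (0.458 to 0.747).

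S100a6 was found in both reference clusters of both libraries. Endothelial-like cells had 565 and 276 CPM, and macrophage-like cells 324 and 336. As for S100a4, few macrophage-like cells gave these UMIs, 7 of 25 and 2 of 8, and 1 Wild-type cell gave 17 of 20. The macrophage-led Tg7 cells alone had 227 CPM. Stromal cells had 1124 and 626 and Tg7 Schwann-led cells 1010, whereas endothelial-led cells differed little between genotypes, with 287 (182 to 431) and 310 (242 to 392). In δ-like cells the levels were 4.68 and 26.0, a ratio of 0.180 (0.0661 to 0.423) from 7 and 27 UMIs. α-like cells had 1.57 and 2.09 CPM from 3 UMIs each.

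The 2 S100 genes met in the same insulin cells to an unequal extent. Of the 38 Tg7 cells with S100a6, 29 (76.3%) also held S100a4, against 47.9% of all Tg7 insulin cells. In Wild-type 28 of 73 (38.4%) did, against 33.7%. Cells with S100a6 were deeper, with a median of 38846.5 UMIs in Tg7 and 56743 in Wild-type, and the part of depth in these shares was not tested.

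**Figure D2:**
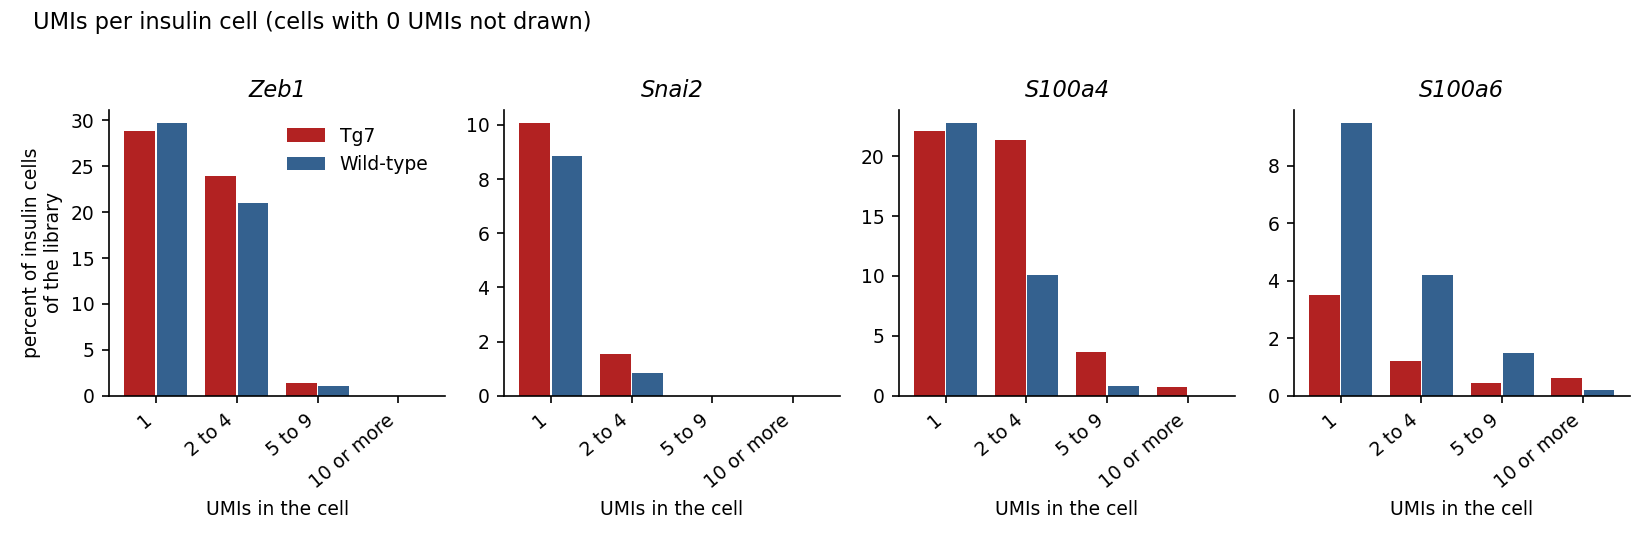
Percent of insulin cells (vertical axis, starting at 0) that held 1, 2 to 4, 5 to 9 or 10 or more UMIs of Zeb1, Snai2, S100a4 or S100a6, in Tg7 (red) and Wild-type (blue), unthinned. Cells with 2 or more S100a4 UMIs made up more of the Tg7 cells, whereas cells with 1 to 9 S100a6 UMIs made up more of the Wild-type cells and 4 Tg7 cells held 10 or more.

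To set the insulin cells against stray RNA, the genes that define the reference cells were measured in the same way. Pecam1, Plvap and Kdr of endothelial cells stood in insulin cells at 0.186%, 0.00852% and 0.0133% of their endothelial-like level in Tg7, and at 0.510%, 0.0910% and 0.0168% in Wild-type. Esm1 was at 0 UMIs in Tg7 and at 0.0292% in Wild-type. Cd74, C1qb and H2-Eb1 of macrophages stood between 0.00151% and 0.00362% of their macrophage-like level in Tg7 and between 0.00717% and 0.0208% in Wild-type, and Lyz2 stood at 0.00617% in Tg7 and at 0 UMIs in Wild-type. Some Wild-type values rest largely on single insulin cells. The richest cell gave 46 of 51 UMIs for Cd74, 16 of 17 for H2-Eb1 and 17 of 22 for Plvap. Vim in insulin cells, at 0.0297% and 0.0344% of the endothelial-like level, lay within the range of the endothelial markers. Zeb2, at 0.426% and 0.208%, lay above Plvap, Kdr and Esm1 in both libraries, above Pecam1 in Tg7 and below it in Wild-type. When endothelial-led cells alone were the reference, Zeb2 stood at 0.846% and 0.376% and Pecam1 at 0.120% and 0.363%. Zeb2 then lay above all 4 endothelial markers in both libraries, although its Wild-type interval overlapped that of Pecam1. Against macrophage-like cells, Zeb2 at 0.238% and 0.0450% lay above all 4 macrophage markers in both libraries. Vim, at 0.0465% and 0.00834%, lay above all 4 in Tg7 but between them in Wild-type, where its value rests on 1 UMI in insulin cells. Zeb2 and Vim were high in both reference clusters, whereas each marker belongs to 1 of them. A percentage of 1 reference class leaves out stray RNA from the other classes. These ranks therefore cannot place Zeb2 or Vim above stray RNA. Zeb1, Snai2, S100a4 and S100a6 stood at 2.22% or more of the endothelial-like level in each library where a percentage could be formed. In the matching comparison over all genes with at least 20 UMIs, 35.8% were at least 2-fold lower in insulin than in endothelial-like cells in Tg7 and 21% in Wild-type, and 34.6% and 43.7% lower than in macrophage-like cells, so a lower level in insulin cells was common among genes at large.

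Over the whole marker lists, 7 of 12 endothelial markers had a UMI in Tg7 insulin cells and 12 of 12 in Wild-type, summing to 10.8 and 13.6 CPM. Egfl7 alone gave 109 of the 137 Tg7 UMIs, whereas Wild-type was led by Pecam1 with 25 of 109. Cdh5, Esm1, Emcn, Tie1 and Robo4 were at 0 in Tg7. For macrophages 13 of 14 and 12 of 14 markers had a UMI, with sums of 51.7 and 108 CPM, but C1qa alone gave 380 of 653 and 555 of 867 UMIs while C1qb gave 1 and 2. Fibroblast markers summed to 2.06 and 0 CPM, with Col1a1 at 0 in both libraries. Of the 12 Tg7 insulin cells with Zeb2, 2 also held a UMI of any of 45 endothelial, stromal and leukocyte markers found in at most 5% of insulin cells. Among all Tg7 insulin cells the number was 117 of 656, or 17.8%. Without the cells that held such a marker the S100a4 ratio was 1.88 (1.60 to 2.22), the S100a6 ratio 0.544 (0.432 to 0.683) and the Zeb1 ratio 0.900 (0.781 to 1.04). The Zeb2 ratio, from 10 and 1 UMIs, was 7.09 (1.01 to 308).

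**Figure D3:**
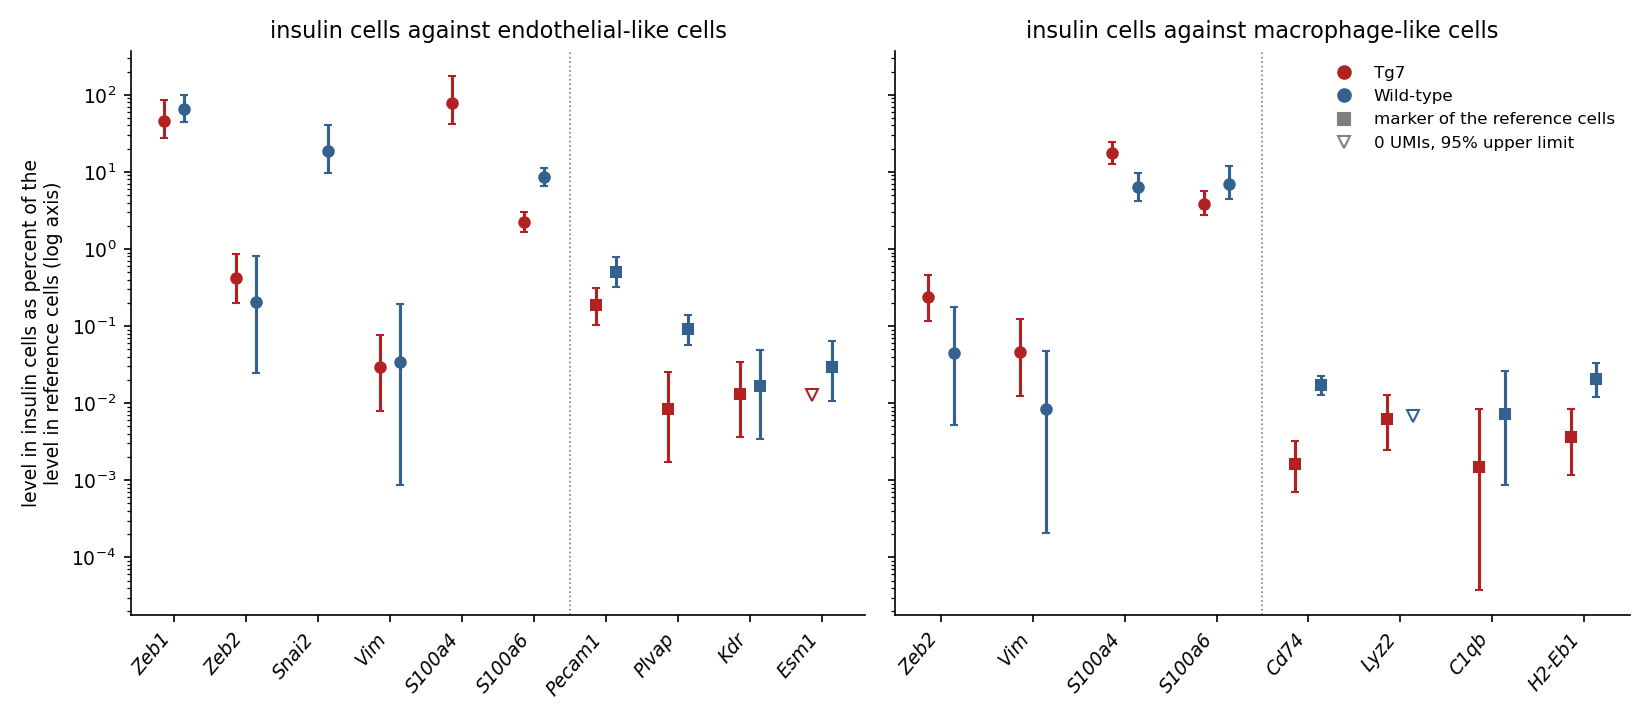
Level in insulin cells as percent of the level in the endothelial-like (left) or macrophage-like (right) cells of the same library, log axis, with exact 95% intervals; circles are the genes followed here, squares markers of the reference cells, and triangles the upper limit at 0 UMIs. Genes with 3 or fewer UMIs in the reference cells are not drawn; Vim lies among the endothelial markers, and Zeb1, S100a4 and S100a6 lie far above them.

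The insulin cells fell into 3 clusters, and the genes varied between them. Cluster 0 was led by Gast and Slc5a10, cluster 1 by Nupr1 and Ucn3, and cluster 3 by Cntn1 and Sh3pxd2a. Neither the 6 genes nor the hormones took part in making the clusters, which hold cells of both genotypes after integration of the libraries. Without integration the insulin cells were largely split by genotype, into clusters of 2 and 300, 240 and 34, 221 and 0, 218 and 0, and 0 and 146 Tg7 and Wild-type cells, so the values by cluster depend on that step. S100a4 in Tg7 was at 82.8 (74.5 to 91.9) CPM in cluster 0, 33.4 (27.3 to 40.4) in cluster 1 and 48.4 (42.6 to 54.8) in cluster 3. In Wild-type it was even, at 29.5, 32.6 and 26.2. The Tg7 over Wild-type ratio was therefore 2.81 (2.22 to 3.58) in cluster 0, 1.02 (0.762 to 1.38) in cluster 1 and 1.85 (1.39 to 2.48) in cluster 3. A ratio past 2-fold thus occurred in 1 of 3 clusters. For S100a6 the ratios were 0.759 (0.572 to 1.01), 0.277 (0.150 to 0.486) and 0.399 (0.246 to 0.644), each below 1. For Zeb1 they were 0.830, 1.38 and 0.868, and only the second interval, 1.08 to 1.76, left out 1.

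Many Tg7 insulin cells had almost no Ins1, with under 1% of their UMIs from this gene in 289 of 656 cells against 10 of 475 in Wild-type. Zeb1 was as high in these Tg7 cells as in the other Tg7 insulin cells, with a ratio of 1.07 (0.914 to 1.26), as were Snai2 with 0.985 (0.623 to 1.54) and S100a4 with 1.10 (0.949 to 1.28). Zeb2 UMIs were divided 5 to 7. S100a6 was higher in the cells nearly without Ins1, with a ratio of 2.12 (1.53 to 2.95), but it was found in 16 of these 289 cells and in 22 of the other 367, so that the difference lay in the UMIs per positive cell. With 4 cells giving 59.1% of the S100a6 UMIs of all Tg7 insulin cells, this interval does not cover the spread between cells. The ratio without those cells was not computed. Cells that kept Ins1 gave a Tg7 over Wild-type ratio of 1.82 (1.55 to 2.14) for S100a4 and 0.380 (0.282 to 0.508) for S100a6.

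A second hormone was found in 110 Tg7 insulin cells and in 2 of Wild-type. S100a4 was lower in these Tg7 cells than in cells with insulin only, at 37.2 against 62.0 CPM and a ratio of 0.600 (0.479 to 0.744). Levels were 34.4 in cells with Gcg, 43.9 in cells with Sst and 32.7 in cells with Ppy. Zeb1 did not share this pattern, with a ratio of 1.09 (0.897 to 1.31). The Tg7 cells with a second hormone were deeper, with a median of 39227 UMIs against 28095 in cells with insulin only. Whether uncalled doublets were among them was not tested. With insulin as the only hormone, the Tg7 over Wild-type ratio of S100a4 was 2.09 (1.79 to 2.44) and that of S100a6 0.426 (0.331 to 0.546), both past 2-fold. These cells also had to pass the insulin threshold, and when only the cells with a second hormone were left out the S100a6 ratio was 0.538 (0.427 to 0.677). The S100a6-positive Tg7 cell that passed no hormone threshold is left out of 0.426 and kept in 0.538.

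**Figure D4:**
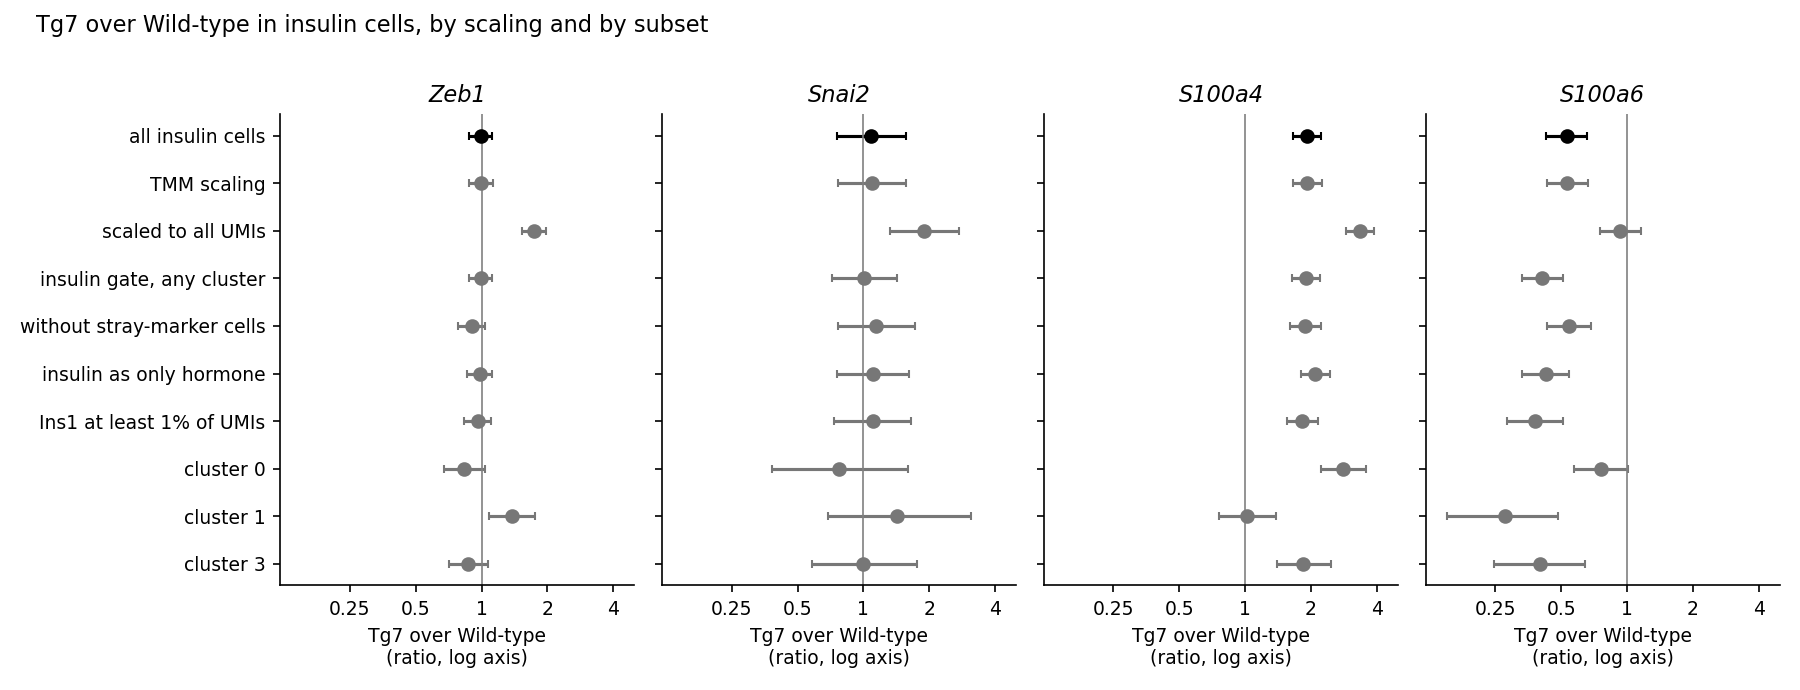
Ratio of Tg7 over Wild-type in insulin cells (log axis, 1 marked by a line) with exact 95% intervals for Zeb1, Snai2, S100a4 and S100a6, in all insulin cells (black) and under other scalings and in subsets of cells (grey). Scaling to all UMIs moves every ratio upward, and among the clusters S100a4 ranges from 1.02 in cluster 1 to 2.81 in cluster 0.

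Other genes of the same families and pathways were read against all 12823 genes with at least 20 UMIs in insulin cells. Of these, 16.4% differed by 2-fold or more between Tg7 and Wild-type, 10.6% being higher and 5.74% lower in Tg7, and the median of all log2 ratios was -0.02. Scaled to all UMIs, 36.1% differed, 34.3% higher and 1.76% lower. The higher share of these calls was 64.9% on the first scale and 95.1% on the second. Zeb1, Snai2, S100a4 and S100a6 had enough UMIs to be counted, and none of these 4 passed 2-fold. Zeb2 and Vim, with 14 and 5 UMIs, did not reach the minimum. Gene lists are described by counts and medians only.

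Of 14 EMT transcription factors 5 reached 20 UMIs, and 0 of 5 differed by 2-fold. Their median log2 ratio was -0.02, equal to that of all genes. Klf8, a Krüppel-like factor, had the highest ratio, 1.34 (0.833 to 2.20), and Tcf4, an E-box-binding factor, the lowest, 0.800 (0.720 to 0.890). Tcf3, its close relative, was at 0.982. Snai1, the founding Snail factor, was counted with 7 and 3 UMIs in insulin cells and at 47.8 and 49.2 CPM in endothelial-like cells. Snai3, Twist1, Prrx1 and Foxc2 had 0 UMIs in the insulin cells of both libraries.

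The epithelial regulators that oppose these factors stood below 1 on the non-hormone scale in all 7 of 10 that were measured. Among them 4 were at least 2-fold lower and 0 higher, against 5.74% of all genes lower, with a median log2 ratio of -1.02. Scaled to all UMIs, 1 was 2-fold lower, the median was -0.20 against 0.79 for all genes, and Cdh1 was at 1.44. Ovol2, a zinc-finger repressor of mesenchymal genes, was lowest, with 73 and 163 UMIs and a ratio of 0.284 (0.213 to 0.377). Esrp1 and Esrp2, splicing regulators of epithelial isoforms, stood at 0.467 (0.418 to 0.523) and 0.362 (0.163 to 0.771). Klf4, a factor of epithelial differentiation, was at 0.495 (0.446 to 0.549), within counting error of the limit. Elf3, an epithelial Ets factor, was at 0.594 and Cdh1, E-cadherin, at 0.819 (0.764 to 0.879). Ovol2 and Cdh1 were put on the list because the study names them.

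Among 12 corepressors and partners of the Zeb and Snail factors 10 were measured, 0 were 2-fold higher and 1 was 2-fold lower. That gene was Kat2b, a histone acetyltransferase, at 0.412 (0.353 to 0.480). Smad2, a transducer of TGFβ signals, was next at 0.678 (0.548 to 0.839), and Kdm1a, the histone demethylase LSD1, was highest at 1.16 (1.05 to 1.28). Ep300, a coactivator, was second highest at 1.02. The median log2 ratio was -0.14.

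Of 16 members of the S100 family 9 were measured, and 2 of these were at least 2-fold higher in Tg7, against 10.6% of all genes. The ratio was above 1 for 8 of 9, although the intervals of S100a10 and S100a16 include 1. The median log2 ratio was 0.92, and it was 0.36 among those with at least 100 UMIs. S100a3 had the highest ratio, 5.47 (2.63 to 13.2) from 69 and 8 UMIs, followed by S100a13 with 2.19 (1.95 to 2.46). S100a16 stood at 1.90 (0.938 to 4.17) and S100z at 1.90 (1.55 to 2.34), close to S100a4. S100a10, the partner of annexin A2, was at 1.04, and S100a6 was the only measured member below 1.

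The listed S100 genes lie on mouse chromosome 3, apart from S100b on chromosome 10, S100z on 13 and S100g on X. In RefSeq on GRCm38.p6, S100a4 spans chr3:90603770-90606045 and S100a6 chr3:90612894-90614414, 6849 bases apart, both on the plus strand. S100a3 ends 1064 bases before S100a4. Of 8 measured members on this chromosome 6 lie within 1 Mb of S100a4 or are that gene, and S100a10 and S100a11 lie outside this window. Neighbours thus had ratios from 0.531 to 5.47. Zeb2 (chr2:44983512-45117442), Vim (chr2:13574311-13582826) and Snai2 (chr16:14705852-14709395) lie elsewhere.

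**Figure D5:**
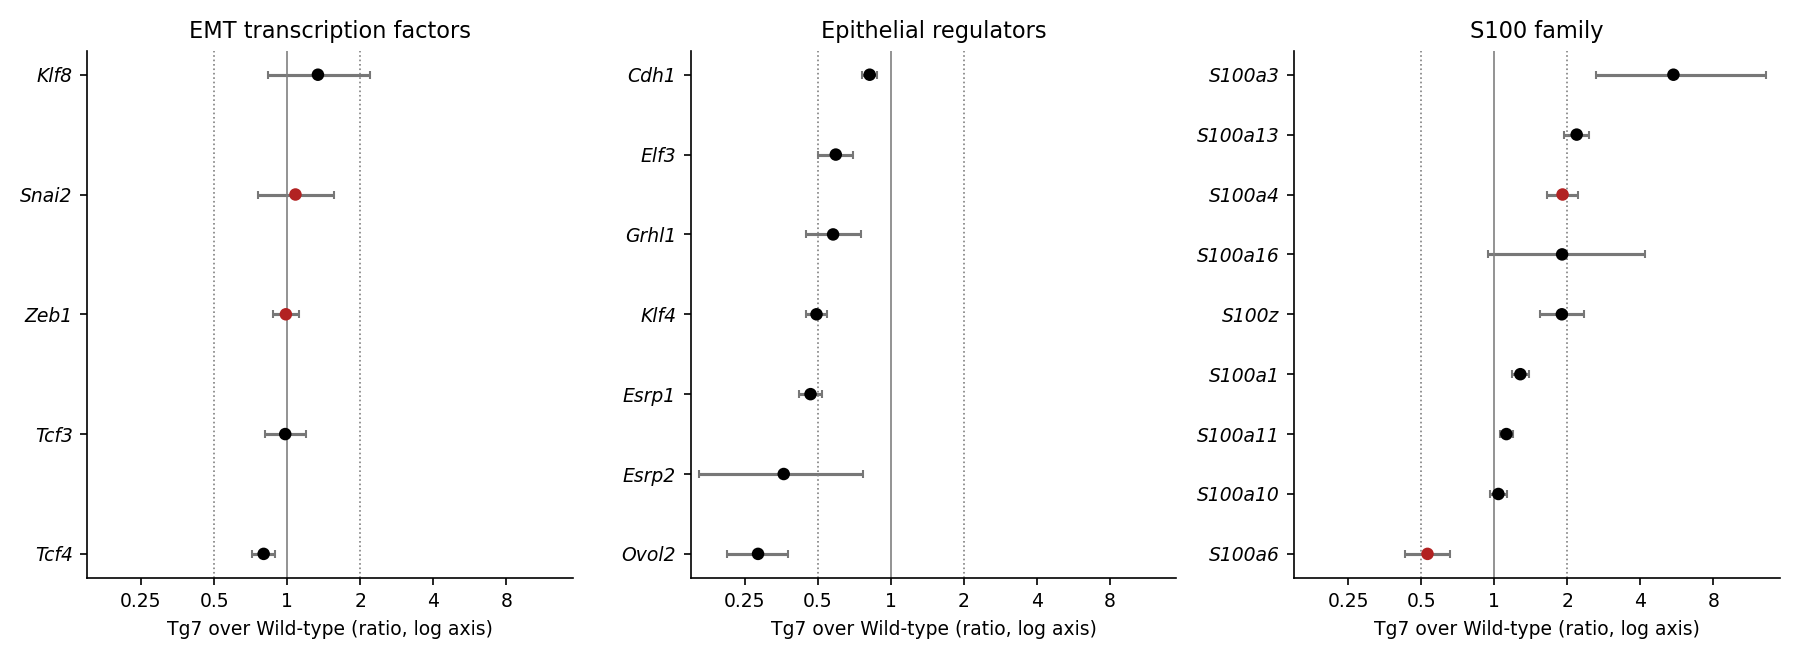
Ratio of Tg7 over Wild-type in insulin cells (log axis) with exact 95% intervals for the members of 3 gene lists that had at least 20 UMIs; red points are genes followed here, the solid line marks 1 and dotted lines 2-fold in either direction. On this scale all 7 epithelial regulators lie below 1, whereas Cdh1 is at 1.44 scaled to all UMIs, and 8 of 9 S100 genes lie above 1, with S100a6 at 0.531.

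Annexins and other S100 partners gave 9 measured genes of 12, 1 of them 2-fold higher and 0 lower, and the median log2 ratio was 0.24. The higher gene was Ager, a receptor that binds S100 proteins, at 2.08 from 23 and 7 UMIs with an interval of 0.866 to 5.75. Anxa4 followed at 1.71 (1.57 to 1.86), and Anxa11 was lowest at 0.713 (0.610 to 0.835), with Cacybp, the S100a6-binding protein, at 0.897 (0.835 to 0.962). Of 18 intermediate filaments and linkers, the family of Vim, 10 were measured. Nefm, a neurofilament, was 2-fold higher, at 5.05 (3.86 to 6.73), whereas Krt8, a keratin, and Lmna, lamin A, were lower at 0.259 (0.247 to 0.270) and 0.366 (0.342 to 0.392). Ina, another neuronal filament, was second highest at 1.21. Of 14 fibroblast and stellate genes only Col1a2 reached 20 UMIs, with 22 in Tg7 and 0 in Wild-type, a level at least 4.65-fold higher in Tg7 (3 UMIs). Col1a2 reached the minimum through Tg7 alone, so its direction was fixed by that minimum and is no result for the list. Col1a1, Lum, Pdgfrb and Thy1 were at 0 in both libraries.

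The genes whose levels were most alike over the 12 sums of 6 classes and 2 libraries were taken from 12346 genes. For Zeb1 these were D17Wsu92e, Tpm1 and Uimc1, with r from 0.987 to 0.991. For Zeb2 they were St8sia4, Gngt2 and Lgals1 (r from 0.993 to 0.995), and for Vim they were Ldha, Tgfb1 and Il4ra (0.969 to 0.978). Lipa, Chmp4b and Pmepa1 were nearest to S100a6 (0.963 to 0.986), and Bcorl1, Prkd1 and AL591952.3 to Snai2 (0.943 to 0.969). S100a4 had the loosest matches, Il1rap, Arhgap27os2 and Cenpm (0.882 to 0.899). Points of a library share its preparation and the sparse classes hold few UMIs, so these values describe the sums only.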

How the data were processed

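Both filtered 10x matrices, 1 for each library, hold raw UMI counts of genes by barcodes, which the authors deposited and which entered all sums unchanged. The submitters' notes name bcl2fastq 2.17.1.14, Cell Ranger 3.0.2, STAR and the mm10 build, with no annotation version in what was read here. Totals were 29931777 UMIs in 1123 Tg7 barcodes and 30829078 in 855 Wild-type barcodes, and 0 barcodes were shared. A barcode needed 1000 UMIs or more, with mitochondrial genes at 20% or less, and 117 and 100 failed. Scrublet (scanpy 1.11.5) called 18 and 12 doublets, which were removed. SCTransform and integration (Seurat 5.3.0, R 4.3.3), 20 components and resolution 0.5 gave the clusters, without hormone or listed genes.

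A cluster was named if 2 or more markers of a type were among its 10 leading genes. Only 1 of 3 insulin clusters met this with β-cell markers, so the insulin class was set by insulin RNA over 20% of UMIs. This rule, the split of reference cells by their leading marker list (at least 10 UMIs) and the removal of the richest cell were chosen after seeing the data. The members and lists were chosen with earlier results of these data known. Named were the 6 members, the 2 highest and 2 lowest ratios of each list among genes with at least 20 UMIs, defining markers, Ovol2 and Cdh1, and 3 genes of highest likeness per member (Pearson correlation of log2(level + 1), at least 50 UMIs). Other list members named were chosen after their values were seen.

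Ratios have conditional exact binomial intervals, levels exact Poisson and shares Clopper-Pearson intervals at 95%. A count of 0 was replaced by a floor of 3 UMIs for bounds. The interval and call steps were run on simulated Poisson counts, where 95.6% of intervals covered the set ratio. The intervals assume that same spread, so the simulation checks the computation only. UMIs held unevenly by few cells were not simulated.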

Additional observations from a re-analysis of the deposited data

How the results depend on the processing

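Of 545 values recomputed under other settings, 473 counted as kept and 72 did not. A kept value lay within the counting interval of the main value. Ratios past 2-fold in the main setting had also to stay on their side of 1. Values of the gene lists have no such interval and were judged by fixed margins. Of the ratios, Vim (2.54) was 0.680 with no barcode filter and 0.746 with doublets kept but 7.48 without integration and 10.3 with cells by insulin share, Zeb2 (3.81) was 6.07 with the latter and 6.68 scaled to all UMIs, and S100a6 (0.531) was 0.410, past 2-fold, with insulin cells taken by their insulin share in any cluster. Cells taken by insulin share include some from outside the insulin clusters. They leave out insulin-cluster cells under the insulin threshold, among them 1 Tg7 cell with S100a6. Scaled to all UMIs, the ratio was 1.73 for Zeb1, 1.90 for Snai2, 3.35 for S100a4 and 0.932 for S100a6. S100a4 (1.91) passed 2-fold also with no barcode filter (2.04), the stricter one (2.08), doublets kept (2.05) and without cells holding a second hormone (2.08). Each of these settings left fewer Tg7 insulin cells, 612, 576, 558 and 546 against 656. The Tg7 level of S100a4, 56.5 CPM, was 60.9 with no barcode filter and 62.1 with the stricter one.

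Shares of insulin cells with a UMI rose with depth by construction. Thinned to 1000 UMIs they were 4.03% and 5.08% for Zeb1 in Tg7 and Wild-type, 6.05% and 1.48% for S100a4, and in Wild-type 0.636% for Snai2 and 1.06% for S100a6. At 4000 they were 18.8% and 17.9% for Zeb1, 20.3% and 10.3% for S100a4, 2.11% for Snai2 in Tg7 and 5.82% for S100a6 in Wild-type. Unthinned they were 54.1% and 51.8% for Zeb1, 11.6% and 9.68% for Snai2, 47.9% and 33.7% for S100a4, 5.79% and 15.4% for S100a6, and 1.83% for Zeb2 in Tg7. The Tg7 share of Vim, from 1 cell, was 0 at 1000 and 4000 UMIs, with no barcode filter, with doublets kept, and without cells holding a second hormone or a stray marker. Without the latter the Wild-type share of Snai2 was 0.249%.

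As percent of the Tg7 endothelial-like level, Vim was 0.0896 without integration, 0.225 with cells by insulin share and 0.0906 against endothelial-led cells, and S100a6 was 4.38 against the latter. As percent of the macrophage-like level, Vim was 0.132 without integration and 0.353 with cells by insulin share, and S100a6 was 5.87 without integration.

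Scaled to all UMIs, the lists had median log2 ratios of 0.79 (EMT factors), -0.20 (epithelial regulators), 0.67 (corepressors), 1.74 (S100), 1.05 (annexins), 0.75 (filaments) and 3.03 (fibroblast genes, from Col1a2 alone). Genes 2-fold higher then numbered 1 of 5 EMT factors, 6 of 9 S100 genes and 5 of 9 annexins and partners. They numbered 3 of 10 filaments and 1 of 10 corepressors, against 34.3% of all genes on that scale. Genes 2-fold lower numbered 1 of 7 epithelial regulators, 0 of 10 corepressors and 1 of 10 filaments, against 1.76% of all genes. With at least 100 UMIs the medians were -0.90 for epithelial regulators, 0.36 for S100 and 0.081 for annexins, with 1 S100 gene and 0 annexins higher. Of all genes at that minimum, 6.19% were 2-fold higher. With at least 1 UMI in each library the medians were 0.27 for EMT factors, -0.90 for epithelial regulators, 0.64 for S100 and -0.66 for fibroblast genes, with 2 EMT factors and 3 filaments higher and 2 corepressors and 2 fibroblast genes lower. Of all genes under that rule, 11.9% were 2-fold higher and 7.62% lower. The cause of these changes beyond the choice of genes and scale was not tested.

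No paired analysis was possible because each genotype had 1 library. Depth limits Zeb2 and Vim in insulin cells, with 14 and 5 UMIs in all, and the macrophage-like cells, of which Wild-type held 8.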
